A study of Mus musculus with 6 samples.

Results

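The planar cell polarity core genes are the small set whose products sit at cell junctions and give the cells of a sheet a common direction within its plane. The 10 genes followed here, Vangl1, Vangl2, Celsr1, Celsr2, Fzd3, Fzd6, Dvl1, Dvl2, Dvl3 and Prickle1, were chosen by name because Scrib is a known partner of Vangl2. Each symbol matched 1 of the 54453 Ensembl genes in the deposited tables. The libraries came from 3 mouse pancreatic tumour organoid lines (T91, T113 and T118), which the labels call PDAC (pancreatic ductal adenocarcinoma) organoids of genotype KPF/FC, grown in Matrigel. Each line gave 1 library with a short hairpin RNA against Scrib (number 5523) and 1 with a control hairpin against Renilla luciferase, so each hairpin group held 3 libraries. T91 came from a female mouse and was used at passage 10, T113 and T118 came from males and were used at passages 13 and 11. All 6 libraries share the tumour genotype and carry a hairpin, delivered by virus per the sample labels, or by plasmid transfection per the text on the design. The Scrib group rests on a single hairpin sequence, and each line was sampled once per hairpin.

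In planar polarity, Celsr cadherins bind each other across the junction between neighbouring cells. Frizzled receptors with Dishevelled adaptors gather on 1 side of the cell, and Vangl proteins with Prickle on the side facing them. In mouse, loss of Vangl2, of Celsr1, of Scrib, or of Fzd3 and Fzd6 together leaves the neural tube open, and Scrib and Vangl2 mutations act together in that phenotype. Dvl proteins also carry the canonical Wnt signal.

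The tail of the Vangl proteins carries the short motif that the PDZ domains of Scrib can bind, so the end of each coding sequence is shown as the known point of contact between the core and the depleted protein. The last 30 coding bases, stop codon included, are printed from the GENCODE M21 transcripts (GRCm38, minus strand, chr3:102158237-102158266 for Vangl1 and chr1:172004602-172004631 for Vangl2), and capitals mark the last 4 codons before the stop.
Vangl1: cttcgcttacagtctGAGACATCAGTCtaa
Vangl2: atgcggctgcagtcgGAGACCTCTGTGtga
The capitals were identical at 9 of 12 bases and the whole stretches at 20 of 30.

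Summed estimated counts ran from 24035559 (T91, Scrib hairpin) to 36235773 (T113, Renilla hairpin) per library, so a single count corresponded to 0.0269 CPM in the deepest and 0.0420 CPM in the shallowest library (CPM being counts brought to a common library total after TMM scaling). Scrib itself averaged 31.6 ± 2.94 CPM with the Scrib hairpin and 164 ± 11.1 CPM with the Renilla hairpin (SD, n = 3 each), with log2 ratios of the Scrib over the Renilla hairpin of -2.57 (T91), -2.17 (T113) and -2.39 (T118). Epithelial markers were abundant, with 7 genes including Epcam, Cdh1 and Krt19 summing to between 7466 and 13247 CPM. Among markers of other cells, the 8 fibroblast genes summed to between 1.43 and 7.77 CPM with the Scrib hairpin and between 1.11 and 1.70 CPM with the Renilla hairpin, the 8 leukocyte genes to between 2.15 and 6.22 CPM and between 3.42 and 4.53 CPM, and the 5 endothelial genes to between 1.26 and 4.17 CPM and between 0.969 and 3.85 CPM. The 8 neural and Schwann genes summed to between 79.0 and 108 CPM over the 6 libraries, most of it from Mbp, while the defining Schwann gene Sox10 was at 0 in every library. Col1a1 and Col1a2, the only fibroblast genes that could be tested, had log2 fold changes of 1.60 (SE 0.48, adjusted p = 0.712) and 1.19 (SE 0.46, adjusted p = 0.748, both edgeR). Of the 135 marker and pathway names listed, all were found in the tables.

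The core families were transcribed mostly through Vangl1, Celsr1, Fzd5, Fzd6 and Dvl1, and Vangl2, Fzd3 and Prickle1 were low. Levels between genes are compared per kilobase of annotated exon, since longer transcripts yield more reads. On that scale (CPM per kb, lowest, median and highest of 6 libraries) the order was Dvl1 (16.7, 17.2 and 18.1), Fzd6 (11.8, 13.5 and 15.7), Celsr1 (6.40, 13.1 and 16.1), Vangl1 (7.95, 8.43 and 9.61), Dvl3 (6.47, 7.48 and 7.85) and Dvl2 (4.50, 5.09 and 6.01). Below them stood Celsr2 (1.62, 3.81 and 4.93), Fzd3 (0.0485, 0.877 and 1.54), Vangl2 (0.157, 0.666 and 1.64) and Prickle1 (0.0290, 0.0511 and 0.0973). Dvl1 stood above every other member in each library, whereas among neighbours in this order the ranges of Fzd6 and Celsr1, of Celsr1 and Vangl1, of Dvl2 and Celsr2, and of Fzd3 and Vangl2 overlapped. Those of Vangl1 and Dvl3, Dvl3 and Dvl2, Celsr2 and Fzd3, and Vangl2 and Prickle1 did not. Among the 14160 tested genes with an annotated length, the mean level per kb of Dvl1 was at the 76.9th percentile, that of Fzd6 at the 71.5th and that of Vangl2 at the 17.7th.

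Within families the makeup was uneven. Vangl1, the paralog of Vangl2, made up 88.8%, 92.7% and 98.4% of the Vangl level per kb with the Scrib hairpin and 85.3%, 92.1% and 97.6% with the Renilla hairpin (T91, T113 and T118 in each case). Celsr1 held between 74.3% and 79.9% of the Celsr level in all libraries, and Celsr3, the third cadherin of the family, no more than 0.161%. Dvl1 held between 54.7% and 60.1% of the Dvl level, Dvl3 between 22.1% and 26.3% and Dvl2 between 15.4% and 19.7%. Among the 10 Frizzled receptors, Fzd6 held 43.7%, 42.9% and 48.5% with the Scrib hairpin and 40.9%, 37.2% and 41.4% with the Renilla hairpin (T91, T113 and T118). Fzd5 held 27%, 37.5% and 36.2% with the Scrib hairpin and 31.1%, 42.1% and 42.8% with the Renilla hairpin, so it stood above Fzd6 in 2 libraries, T113 and T118 with the Renilla hairpin. In the same family Fzd3 held from 0.169% to 4.85%. Prickle1, the cytoplasmic partner of Vangl, was close to absent, and in that family Prickle3 held from 77.4% to 97.3%. Prickle3 was itself low, at 0.813 to 1.48 CPM per kb.

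**Figure D1:**
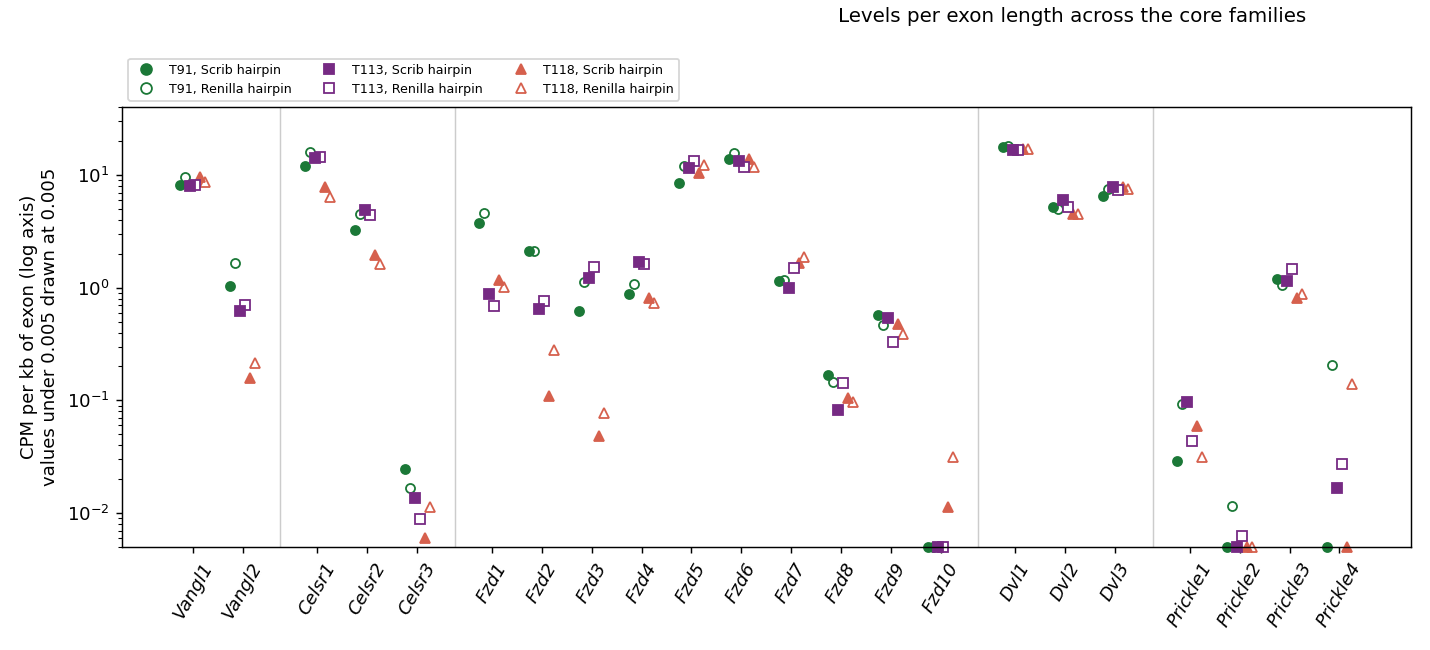
Level of every Vangl, Celsr, Fzd, Dvl and Prickle gene in CPM per kb of exon (log axis), 1 point per library, with filled symbols for the Scrib hairpin and open symbols for the Renilla hairpin. Vangl1, Celsr1, Fzd5, Fzd6 and the Dvl genes lay at 4.50 CPM per kb or more in every library, while Vangl2 and Fzd3 dropped to 0.157 and 0.0485 CPM per kb at their lowest, in T118.

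The comparison of hairpins asks whether core genes change when Scrib is depleted. No member passed the test. Fzd3 and Vangl2, a receptor and the membrane partner of Scrib, were the 2 members with a lower value in each of the 3 lines, and they had the lowest fitted changes, -0.61 and -0.43 (a fitted change is the log2 fold change of the Scrib over the Renilla hairpin across the lines). Dvl1 was at -0.02 and stayed within a log2 ratio of 0.04 of its control in each line. Of the 10 members, 9 passed the filter on low counts and 0 of these 9 had an adjusted p under 0.05 in edgeR's quasi-likelihood test with a term for the line, where 0.00706% of the 14169 genes tested were called (1 gene, Scrib). Adjusted p-values of the members ran from 0.693 to 0.987. At an unadjusted p under 0.05, 1 member (Fzd3) was lower and 0 were higher, against 5.06% of all tested genes lower, 1.55% higher and 6.61% in either direction. Values below 0 were found for 7 of the 9 members and for 51.8% of all tested genes. The median log2 fold change was -0.02 over the 9 members and -0.01 over all genes tested.

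**Figure D2:**
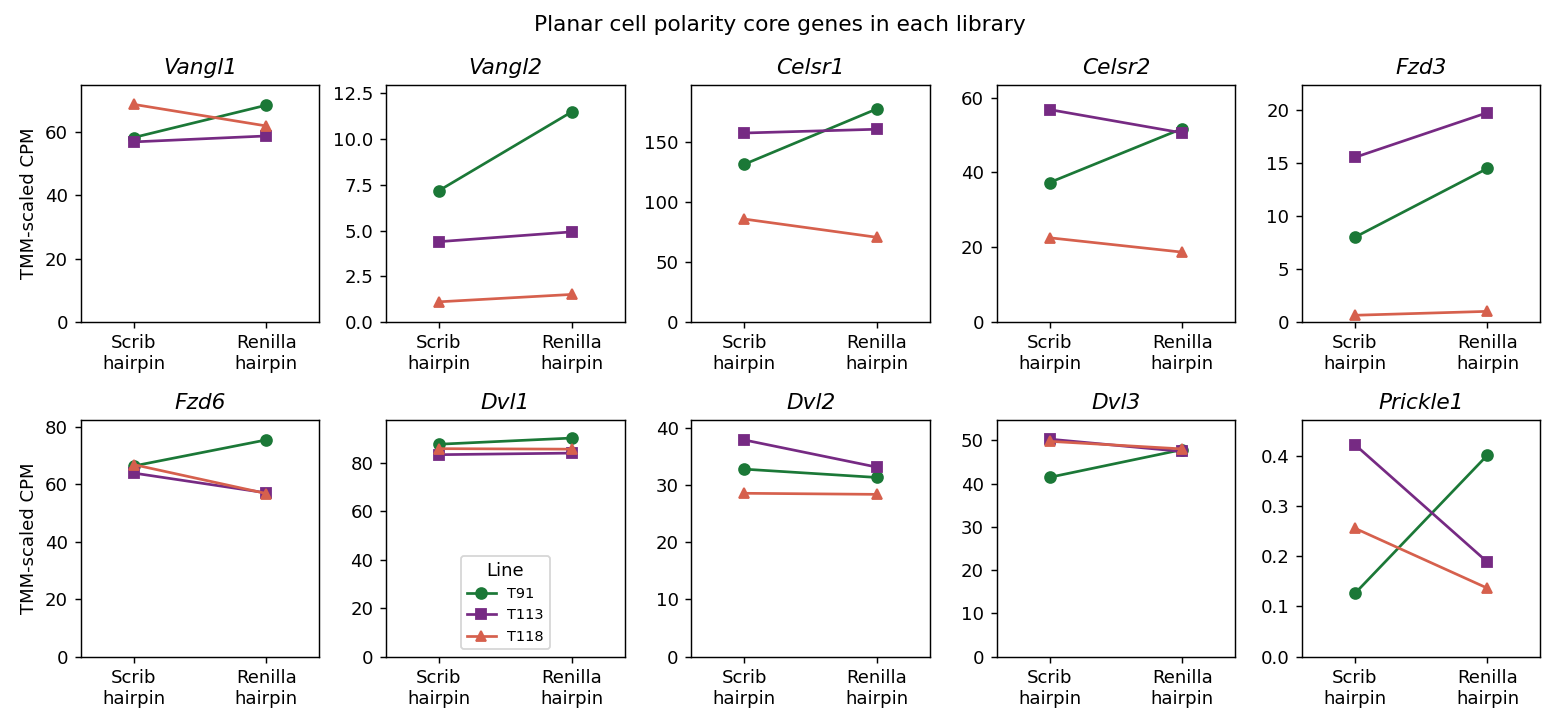
TMM-scaled CPM of the 10 members in each library, with the Scrib hairpin on the left and the Renilla hairpin on the right of each panel and a line joining the libraries of 1 organoid line; each panel has its own axis from 0. Vangl2 and Fzd3 slope the same way in all 3 lines, and T118 lies lowest for Vangl2, Celsr1, Celsr2 and Fzd3.

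Fzd3, a Frizzled receptor best known from neural tube closure and axon growth, had 7.98, 15.5 and 0.621 CPM with the Scrib hairpin in T91, T113 and T118, against 14.5, 19.7 and 0.989 CPM with the Renilla hairpin. The gene spans chr14:65192449-65262463 on the minus strand (GRCm38). Each line had less Fzd3 with the Scrib hairpin, yet the groups overlapped. In these bulk libraries, fewer cells that express a gene and less RNA per cell cannot be told apart. The fitted change was -0.61 (SE, the standard error, 0.17, 95% interval -1.03 to -0.19, unadjusted p = 0.0116, adjusted p = 0.693 by edgeR with Benjamini-Hochberg adjustment). T91 gave a log2 ratio of -0.86 (95% counting interval -1.11 to -0.61), T113 gave -0.35 (-0.52 to -0.18) and T118 gave -0.67 (-1.63 to 0.24). In T118 that ratio rests on 17 and 29 counts (Scrib, then Renilla hairpin), and its interval includes 0. These intervals come from an exact binomial comparison of 2 libraries and cover counting error only, not the variation between cultures.

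Vangl2, the membrane protein whose mutation underlies the looptail mouse, had 7.18, 4.39 and 1.10 CPM with the Scrib hairpin in T91, T113 and T118, against 11.5, 4.92 and 1.5 CPM with the Renilla hairpin. The gene spans chr1:172000960-172028444 on the minus strand. It too was lower within each line while the groups overlapped. The fitted change was -0.43 (SE 0.20, 95% interval -0.91 to 0.04, unadjusted p = 0.0682, adjusted p = 0.772 by edgeR). Within lines the log2 ratios were -0.68 for T91 (95% counting interval -0.95 to -0.41), -0.17 for T113 (-0.50 to 0.16) and -0.45 for T118 (-1.17 to 0.25). Only the T91 interval lay below 0, and the T118 value came from 30 and 44 counts. Being lower in all 3 lines was true of 2 of the 9 members and of 15.4% of all tested genes. Vangl1, its paralog, had 58.3, 56.9 and 68.8 CPM with the Scrib hairpin and 68.5, 58.8 and 61.9 CPM with the Renilla hairpin (T91, T113 and T118), and a fitted change of -0.04 (SE 0.11). Its sign differed between lines, from -0.23 in T91 to 0.15 in T118.

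The Celsr cadherins went opposite ways in T91 and T118. Celsr1, the junctional cadherin of the core in skin and neural tube, had 131, 157 and 85.7 CPM with the Scrib hairpin in T91, T113 and T118, against 177, 160 and 70.5 CPM with the Renilla hairpin. Celsr2, its paralog, had 37.3, 56.8 and 22.5 CPM with the Scrib hairpin, against 51.7, 50.5 and 18.6 CPM with the Renilla hairpin. For Celsr1 the log2 ratios were -0.43 (95% counting interval -0.50 to -0.37) for T91, -0.03 (-0.08 to 0.03) for T113 and 0.28 (0.20 to 0.37) for T118. For Celsr2 they were -0.47 (-0.59 to -0.35), 0.17 (0.07 to 0.26) and 0.27 (0.10 to 0.44) in the same lines. Across lines these cancelled, with fitted changes of -0.06 (SE 0.15) for Celsr1 and -0.01 (SE 0.16) for Celsr2. A ratio below 0 in T91 and above 0 in T118 was found for 6 of the 9 members and for 28.4% of all tested genes. With the whole counting interval on those sides it was 4 of the 9 members and 12.6% of all tested genes, and 27.5% of all tested genes had intervals on opposite sides of 0 in some pair of lines, as did the same 4 members. With 1 library per line and hairpin, a difference between lines in the response has no replicate and was not tested.

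Fzd6, a partner of Fzd3 in tissue polarity, had 66.4, 63.9 and 66.9 CPM with the Scrib hairpin and 75.5, 57.0 and 56.8 CPM with the Renilla hairpin in T91, T113 and T118. It was lower in T91 (log2 ratio -0.18) and higher in T113 (0.16) and T118 (0.24), with a fitted change of 0.07 (SE 0.11). The 2 Frizzled members thus had ratios of unlike sign in T113 and T118 and of the same sign in T91.

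The Dishevelled adaptors passed neither between hairpins nor between lines. Dvl1 had 87.8, 83.5 and 86.0 CPM with the Scrib hairpin and 90.4, 84.1 and 85.8 CPM with the Renilla hairpin (T91, T113 and T118), and a fitted change of -0.02 (95% interval -0.23 to 0.20). Dvl3 had 41.5, 50.3 and 49.8 CPM with the Scrib hairpin and 47.9, 47.4 and 48.0 CPM with the Renilla hairpin (fitted change -0.02, 95% interval -0.27 to 0.22). Dvl2 had 32.8, 37.9 and 28.6 CPM with the Scrib hairpin and 31.3, 33.1 and 28.4 CPM with the Renilla hairpin, and was the 1 member with a higher value in all 3 lines, as were 14.7% of all tested genes (fitted change 0.09, 95% interval -0.15 to 0.33). Of the exons of Dvl2, 18.3% overlap Acadvl on the other strand, a gene with between 1645 and 2526 estimated counts per library, and since no strand setting is stated their reads may not have been told apart. For the Dvl genes the intervals leave room for changes of up to about 0.33 on the log2 scale. Prickle1 was not tested: it had 3, 13 and 7 estimated counts with the Scrib hairpin and 12, 7 and 4 with the Renilla hairpin, and its counting interval included 0 in each line, for example -4.14 to 0.22 on the log2 scale in T91.

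**Figure D3:**
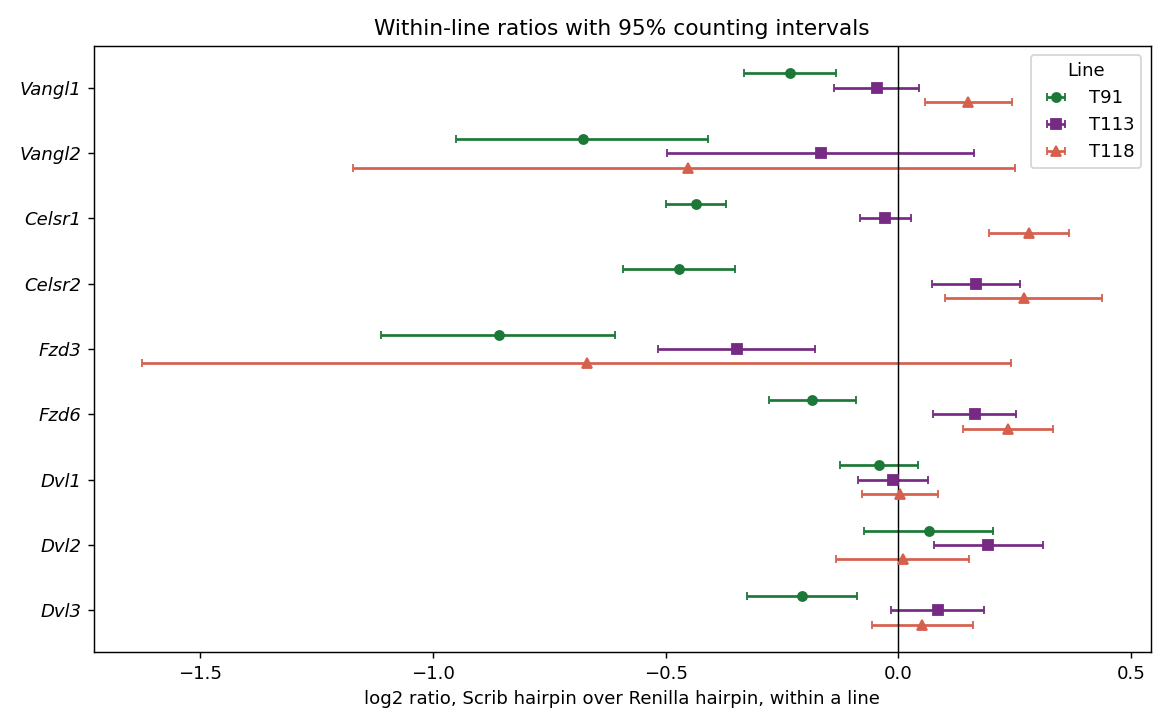
Log2 ratio of the Scrib over the Renilla hairpin within each line for the 9 tested members, with 95% exact binomial counting intervals as bars. Fzd3 and Vangl2 lie below 0 in all lines, and Vangl1, Celsr1, Celsr2 and Fzd6 have intervals on opposite sides of 0 in T91 and T118.

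In T91 8 of the 9 members were lower with the Scrib hairpin, in T113 5 and in T118 2, where 49.8%, 50.5% and 50.2% of all tested genes were lower. The ratios of T91 went with exon length over all genes, where the exons of all annotated transcripts of a gene were merged. In T91 the median log2 ratio was 0.22 for 1896 genes of up to 1500 exon bases and -0.31 for 1595 genes of over 9000. The same medians were 0.03 and -0.05 for T113 and -0.06 and 0.08 for T118. Most members are long on that measure, from 4345 exon bases for Prickle1 to 12804 for Fzd3. Set against the median of genes in the same length class, the T91 log2 ratio came to -0.13 for Celsr1, -0.16 for Celsr2 and -0.09 for Vangl1. Relative to that median Fzd3 stood at -0.55 (T91), -0.30 (T113) and -0.75 (T118) on the log2 scale, and Vangl2 at -0.53, -0.16 and -0.50. The T91 library with the Scrib hairpin was also the shallowest and held the highest sums of fibroblast markers (7.77 CPM) and of leukocyte markers (6.22 CPM). Whether RNA quality, depth or such cells had a part in the T91 ratios was not tested.

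**Figure D4:**
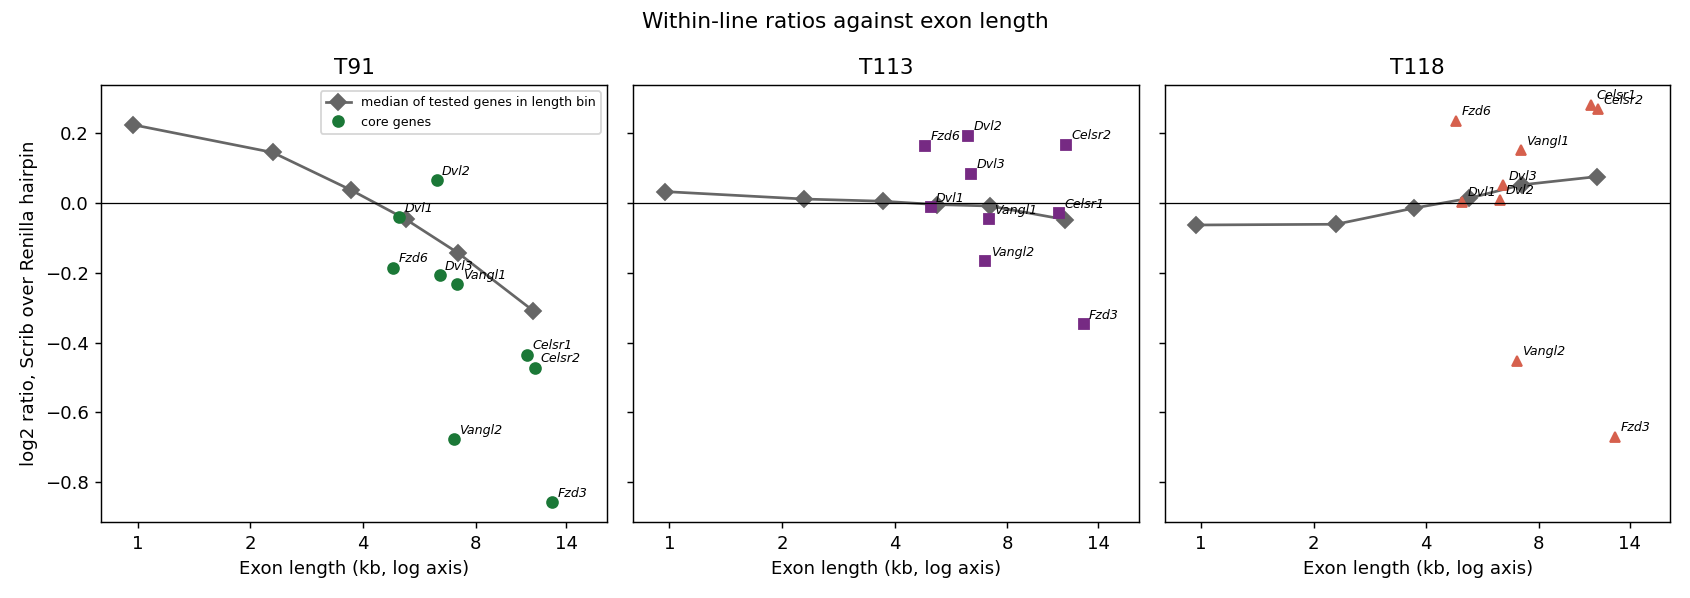
Log2 ratio of the Scrib over the Renilla hairpin against exon length (log axis) in T91, T113 and T118, with grey diamonds for the median of all tested genes in 6 length classes and coloured symbols for the 9 members. The grey line descends to -0.31 in T91 and is flatter in T113 and T118, and Fzd3 and Vangl2 lie below it in each panel.

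Over the 9 members, the line accounted for a median of 89.4% of the variance in log2 CPM and the hairpin for 3.26%. Over all tested genes these medians were 62.8% and 8.09%. The line takes more terms in the fit than the hairpin, which raises its share. Such a share does not measure the size of a difference: the line held 89.4% for Dvl1, which ran only from 83.5 to 90.4 CPM. In T118 Vangl2, Celsr1, Celsr2 and Fzd3 were lower than in the other lines, whereas Vangl1, Fzd6 and the Dvl genes did not pass. In edgeR's F-test of the line terms, 4 of the 9 tested members had an adjusted p under 0.05, against 14% of all tested genes. These were Fzd3 (adjusted p = 0.000478), Vangl2 (0.00281), Celsr2 (0.0134) and Celsr1 (0.0218). Among the other 5 the adjusted p ran from 0.248 (Dvl2) to 0.815 (Dvl1). Each line was measured with 1 library per hairpin, and the test takes its spread from what remains after the mean hairpin effect. Each line is a single culture lineage whose sex and passage number cannot be told apart from the line.

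Fzd3 averaged 0.805 CPM over the 2 libraries of T118, 11.2 CPM in T91 and 17.6 CPM in T113. It was lower in T118, with a log2 difference of -3.77 over T91 (SE 0.24, adjusted p = 0.000454) and of -4.47 over T113 (SE 0.24, adjusted p = 0.000558, both edgeR). Vangl2 averaged 1.30 CPM in T118, 9.34 CPM in T91 and 4.66 CPM in T113. T118 over T91 came to -2.83 on the log2 scale (SE 0.26, adjusted p = 0.00172) and T118 over T113 to -1.86 (SE 0.25, adjusted p = 0.00928). Between T113 and T91 the log2 difference was -0.97 for Vangl2 (adjusted p = 0.0689) and 0.70 for Fzd3 (adjusted p = 0.112, both edgeR). No member passed in that contrast, where 3.17% of all tested genes were lower and 2.89% higher in T113.

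The cadherins differed less. Celsr1 averaged 78.1 CPM in T118, 154 CPM in T91 and 159 CPM in T113, so that T118 stood at -0.98 on the log2 scale over T91 (SE 0.18, adjusted p = 0.0197) and at -1.02 over T113 (SE 0.18, adjusted p = 0.0199). Celsr2 averaged 20.6 CPM in T118, 44.5 CPM in T91 and 53.6 CPM in T113, with log2 values of -1.11 (SE 0.20, adjusted p = 0.0175) and -1.38 (SE 0.20, adjusted p = 0.0107) by the same edgeR fit. For both cadherins T113 and T91 overlapped. So 4 of 9 members were lower in T118 than in T91 and 4 lower than in T113, and 0 were higher in either contrast, where 5.8% and 5.34% of all tested genes were lower and 5.24% and 4.91% higher. Both T118 libraries lay below the other 4 for 5 of the 9 members (Dvl2 besides these 4), as for 17% of all tested genes. The line's share of the variance was 97.3% for Fzd3, 96.0% for Vangl2, 93.0% for Celsr2 and 90.9% for Celsr1. Among the members not called between lines, it was 89.4% for Dvl1, 82.7% for Dvl2, 51.6% for Fzd6, 47.6% for Dvl3 and 45.2% for Vangl1. Without T118 the test between T113 and T91 called 2 members, Vangl2 (adjusted p = 0.0121) and Fzd3 (adjusted p = 0.0267), where 11.3% of all genes were called.

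Promoters are shown for the members that differed between lines and had a RefSeq entry (Vangl2 and Celsr2), with that of Dvl1, which did not pass, beside them. Celsr1, Fzd3, Fzd6 and Vangl1 are named only. Each stretch runs from 250 bases before to 50 after the RefSeq start in GRCm38.p6 (chr1:172027246-172027545, minus strand, for Vangl2, chr3:108415530-108415829, minus strand, for Celsr2, and chr4:155847152-155847451, plus strand, for Dvl1). Capitals mark GC boxes (GGGCGG on either strand).
Vangl2: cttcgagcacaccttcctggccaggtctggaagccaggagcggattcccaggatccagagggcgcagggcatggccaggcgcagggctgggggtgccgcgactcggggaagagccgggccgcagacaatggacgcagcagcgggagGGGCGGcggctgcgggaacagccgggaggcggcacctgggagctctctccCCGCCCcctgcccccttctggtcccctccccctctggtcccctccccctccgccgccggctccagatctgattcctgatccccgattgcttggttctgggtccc
Celsr2: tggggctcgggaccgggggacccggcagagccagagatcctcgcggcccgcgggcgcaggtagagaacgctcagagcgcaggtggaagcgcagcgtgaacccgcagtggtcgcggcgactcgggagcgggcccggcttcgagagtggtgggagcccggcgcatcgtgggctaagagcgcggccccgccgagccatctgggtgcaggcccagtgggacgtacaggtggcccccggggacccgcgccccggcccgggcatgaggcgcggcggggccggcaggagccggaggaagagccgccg
Dvl1: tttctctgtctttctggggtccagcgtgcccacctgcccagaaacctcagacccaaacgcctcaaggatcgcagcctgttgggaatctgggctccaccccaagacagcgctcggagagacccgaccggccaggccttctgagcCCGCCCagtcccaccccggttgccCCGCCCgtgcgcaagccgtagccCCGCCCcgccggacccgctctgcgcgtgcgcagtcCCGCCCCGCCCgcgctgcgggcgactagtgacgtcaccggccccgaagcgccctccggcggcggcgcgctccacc
The GC box was matched 2 times in Vangl2, 0 times in Celsr2 and 5 times in Dvl1, with 2 overlapping matches in the last, and at least once in 35.7% of the 32851 promoters of the table. A CCAAT box (CCAAT, in 37.4% of all promoters) and a TATA box (TATAAA, in 13.6%), searched on both strands, were matched in none of these 3 promoters. CG dinucleotides numbered 21 in Vangl2, 40 in Celsr2 and 35 in Dvl1, against a median of 7 over all promoters. Fewer were found in 75.2%, 96.1% and 93.0% of all promoters, in the same order. The members with an entry but not printed had 20 (Dvl2), 30 (Dvl3) and, at separate starts, 39 and 20 (Prickle1). Their GC boxes numbered 4, 4, 3 and 2 in that order.

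The wider pathway was followed through lists of paralogs, ligands and co-receptors, regulators and effectors. Of the 12 paralogs 8 were tested and 0 passed over all genes. Fzd5, the other abundant Frizzled, was lower in all 3 lines, with 70.3 ± 10.8 CPM with the Scrib hairpin and 86.4 ± 5.39 CPM with the Renilla hairpin (SD, n = 3 each), and a fitted change of -0.31 (SE 0.10, adjusted p = 0.744 by edgeR). Fzd9 and Fzd7 came next by p, at 0.43 (SE 0.30) and -0.26 (SE 0.19). The paralogs had a median log2 fold change of -0.13.

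Of the 6 Wnt ligands on the list, Wnt4 and Wnt7a passed the filter on low counts and 4 did not. Wnt4 had 457, 294 and 769 estimated counts with the Scrib hairpin in T91, T113 and T118, against 343, 250 and 670 with the Renilla hairpin, and Wnt7a had 70, 9 and 68, against 125, 15 and 72. Among the other 4, Wnt5a had at most 5 counts in any library, Wnt5b at most 8 and Wnt9b 0, while Wnt11 had at most 3 with the Scrib hairpin and 14 in the T118 library with the Renilla hairpin. Of 15 ligands and co-receptors 8 were tested and 0 passed. Wnt4, a secreted Wnt, had a fitted change of 0.51 (SE 0.14), Sdc4, a heparan sulphate proteoglycan that engages the pathway in frog embryos, of -0.23 (0.09), and Lrp5, a canonical Wnt co-receptor, of -0.19 (0.09). Ror2 and Ptk7, receptors tied to planar polarity in mouse, were present at 30.1 ± 18.1 and 23.9 ± 9.83 CPM with the Scrib hairpin, and at 30.6 ± 18.9 and 26.6 ± 14.3 CPM with the Renilla hairpin (SD, n = 3 each).

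Of 17 regulators 15 were tested and 0 passed. Smurf1, a ubiquitin ligase that targets Prickle in mouse, had a fitted change of -0.28 (SE 0.09), Arfrp1, a GTPase of Vangl2 transport, of 0.20 (0.10) and Plk1, a mitotic kinase that acts on Celsr1, of 0.14 (0.11). Nos1ap, an adaptor that binds Scrib, was at 3.74 ± 1.39 CPM with the Scrib hairpin and 3.89 ± 0.952 CPM with the Renilla hairpin (SD, n = 3 each). Of 21 effector genes (20 symbols, Sept2 having 2 identifiers) 19 were tested and 0 passed. Daam1, a formin that binds Dishevelled, had 35.0, 41.3 and 35.2 CPM with the Scrib hairpin in T91, T113 and T118, against 42.1, 55.4 and 47.4 CPM with the Renilla hairpin. The fitted change of Daam1 was -0.37 (SE 0.10, unadjusted p = 0.0068, adjusted p = 0.634 by edgeR). Sept2 (the identifier with fewer reads) and Cfl1 came next by p, at -0.37 (0.23) and 0.12 (0.10). The Sept2 identifier with more reads was at 0.10 (0.13), and the reads of the 2 Sept2 identifiers cannot be told apart. Of the 6 Fat and Dachsous genes, Fat1 alone was tested, at -0.38 (0.21), and its log2 ratio was -1.05 for T91 and -0.06 for both T113 and T118.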

How the data were processed

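Gene expression was measured by mRNA sequencing of 6 organoid cultures. Each library has 1 deposited table of estimated counts by Ensembl gene, made with Salmon 1.4.0 on GRCm38 (mm10) per the submitters' processing notes, which also list DESeq 2. For the annotation, the strand setting and the summing to genes, the sources used here state nothing. Estimated counts were rounded to whole numbers. Symbols, positions and exon lengths came from GENCODE M21 (GRCm38), matching 54200 of 54453 identifiers.

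Counts were analysed in R 4.3.3 with edgeR 4.0.16: filterByExpr by hairpin (minimum count 10), TMM scaling, robust quasi-likelihood fit with terms for line and hairpin, two-sided tests and Benjamini-Hochberg adjustment over all 14169 genes (threshold 0.05). CPM values are TMM-scaled. The term for line acts as the replicate block, since the labels give every line both hairpins. Deviations from group means correlated at 0.621, 0.666 and 0.662 within T91, T113 and T118. The fit had 2 residual and 4.43 prior degrees of freedom. Nothing in the labels says whether the 2 libraries of a line were cultured in parallel. Within-line intervals are exact binomial. Log2 CPM for variance shares and correlation had a prior count of 2.

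The scripts were tested on simulated data, with changes placed in genes of higher counts. There edgeR recovered 90 of 100 genes changed 2-fold and 99 of 100 changed 4-fold. All these changes were placed in the same simulated set, and no hairpin effect differed between lines. With many genes changed, the Benjamini-Hochberg adjustment is easier to pass than in the real contrast, where 1 gene was called. The recoveries therefore do not say how often a 2-fold change of a member would have been called. In the simulation edgeR also called 32 unchanged genes, DESeq2 called 42 and limma-voom 36, so an adjusted p near the threshold calls for caution. Alternatives dropped the term for line, or used DESeq2 size factors, plain library size, no filter or an average CPM of at least 5, DESeq2 1.42.0, limma-voom (limma 3.58.1), non-robust dispersions, a line test without the hairpin term and leaving out each line. Exon-length offsets were chosen after seeing the data. The members and lists were chosen with earlier results of these data known. Besides the members and Scrib, the text names list genes with an unadjusted p under 0.05 or the 3 with the smallest p (for marker lists other than fibroblasts, sums stand in for single genes), and the 3 genes most like Vangl2. Ror2, Ptk7, Nos1ap, the Wnt ligand counts, the markers and the line differences of the closing observations were chosen after their values were seen.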

Additional observations from a re-analysis of the deposited data

Results flagged for a closer look

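The response to the Scrib hairpin had opposite signs in different lines for 4 members, with counting intervals on opposite sides of 0, as for 27.5% of all tested genes. These intervals are narrow for abundant genes. The difference in log2 ratio between T118 and T91 was 0.38 for Vangl1, 0.72 for Celsr1, 0.74 for Celsr2 and 0.42 for Fzd6. Between T113 and T91 it was 0.64 for Celsr2 and 0.35 for Fzd6. In each case the ratio was below 0 in T91 and above 0 in the other line. The difference was not tested, since each line had 1 library per hairpin. Relative to genes of similar exon length, the ratio of Celsr1 was -0.13 in T91 and 0.21 in T118, that of Celsr2 -0.16 and 0.19, that of Vangl1 -0.09 and 0.10, and that of Fzd6 -0.14 and 0.22 in the same lines.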

How the results depend on the processing

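Under the 12 alternatives for the hairpin contrast no member was called, and Scrib was called under each (log2 fold change -2.48 to -2.28). The count of genes called over the whole table, 1 in the fit reported, was 64 without a low-count filter (54 lower, 10 higher), 63 with DESeq2 (57 and 6), 8 with limma-voom (5 and 3) and between 9 and 94 when a line was left out, and the cause was not tested. The fit without the line term (no replicate block) called 1 gene and no member, and there Fzd3 had a log2 fold change of -0.54 and an unadjusted p of 0.688 by edgeR. Fzd3 kept its sign under the 12 alternatives (-0.78 to -0.44, adjusted p from 0.341 to 0.9999), as did Vangl2 (-0.57 to -0.29, adjusted p from 0.664 to 0.9999). The sign turned for 5 members when a line was left out, with log2 fold changes over these settings of -0.142 to 0.0521 for Vangl1, -0.233 to 0.124 for Celsr1, -0.150 to 0.216 for Celsr2, -0.0737 to 0.0685 for Dvl3 (each above 0 without T91) and -0.0122 to 0.200 for Fzd6 (below 0 without T118). With exon-length offsets Celsr2 was at 0.0486. Fzd3 was at -0.45 there (unadjusted p = 0.0264 by edgeR), against -0.61 in the fit reported, and Vangl2 at -0.41, against -0.43. Between lines, 4 members were called under 11 of 12 alternatives and 2 without T118, so leaving out a line gave between 2 and 4. In T118 Vangl2 and Fzd3 had 17 to 44 counts per library, which sets the width of their counting intervals there.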

Other observations

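Beyond the 10 members, several genes of the pathway lists also differed between lines by edgeR's F-test of the line terms with Benjamini-Hochberg adjustment, and none of them had passed between hairpins. Of the tested genes, 3 of 8 paralogs, 5 of 8 ligands and co-receptors, 3 of 15 regulators and 1 of 19 effectors were called, against 14% of all tested genes. Fzd1 averaged 17.5 CPM in T91, 3.31 CPM in T113 and 4.56 CPM in T118 (adjusted p = 0.00241), and Fzd2 averaged 7.74, 2.59 and 0.712 CPM in the same lines (adjusted p = 0.00515). Dact1, an intracellular protein that binds Dishevelled and Vangl2, ran the other way, with 0.440 CPM in T91, 0.364 CPM in T113 and 7.68 CPM in T118 (adjusted p = 0.00102). Ror2 averaged 26.7, 50.3 and 14 CPM (adjusted p = 0.00233) and Ptk7 38.6, 21.8 and 15.3 CPM (adjusted p = 0.00441) in T91, T113 and T118.

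The genes whose log2 CPM followed that of Vangl2 most closely over the 6 libraries, among tested genes with an average log2 CPM of at least 2, were Zc2hc1a, Gm47547 and Zfp90. The 6 libraries are 3 lines with 2 hairpins each, so this likeness mostly describes the order of the lines. Zfp90 had 14.3, 11.7 and 6.32 CPM with the Scrib hairpin in T91, T113 and T118, against 16.5, 11.1 and 6.75 CPM with the Renilla hairpin.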
